A study of Mus musculus with 8 samples.

Results

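Immediate early genes are switched on within minutes of a stimulus, without new protein synthesis, and their RNAs decay quickly. Kinases of the MAP kinase family, cyclic AMP signalling and calcium act on factors already bound at their promoters. Many of the products are transcription factors that then act on later genes. In fat they are known to respond to adrenergic and insulin signals, to inflammatory mediators, and to the handling and warming of excised tissue. 10 such genes were followed here, Fos, Fosb, Jun, Junb, Egr1, Atf3, Ier2, Ier3, Zfp36 and Dusp1, out of 18820 genes measured. They were chosen by name, as probe sets annotated to exactly 1 of these symbols. Each of the 10 had 1 such probe set.

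The samples were epididymal white fat, a visceral depot attached to the epididymis, from male C57BL/6 mice. Before sampling, every mouse ate a low-fat diet (10% of energy from fat) for 2 weeks and then a high-fat diet (45%) for 16 weeks. 4 arrays (WT) came from wild-type mice, which were purchased and are not described as littermates. The other 4 (IL37TG) came from transgenic mice overexpressing human IL37, an IL-1 family cytokine with anti-inflammatory action. The ages of the mice, the promoter that drives the transgene and whether RNA of several mice was pooled are not given in the sources used here. Replicate numbers in the labels do not say that each array is a separate mouse, so p-values describe the spread of these samples, which may be technical. RNA entered the arrays only with an RNA integrity number above 8. Values are log2 expression, in which a difference of 1 is a doubling, and differences are IL37TG minus WT.

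Array medians lay between 5.97 and 6.04, and array pairs correlated across genes at 0.980 to 0.996 within groups and 0.971 to 0.991 across groups. Precision is limited by how few arrays there are. Adipoq, the adiponectin gene that defines fat cells, ranged from 12.12 to 12.51, and for 4 of 5 measured markers of epididymal epithelium the mean was under 4.49, the 25th percentile over genes. With limma over all genes at a Benjamini-Hochberg adjusted p of 0.05, transgenic fat had 390 genes up (2.07%) and 239 down (1.27%). Lower genes outnumbered higher ones in some other fits, at 668 against 520 without wild-type replicate 3 and 60 against 10 with a block for the letter in the array name. The 3.34% called with all 8 arrays and no block are the background for the counts of members.

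None of the 10 immediate early genes passed that threshold by limma. At an unadjusted p of 0.05, 3 of the 10 passed, namely Fos, Atf3 and Egr1, where 20.6% of all genes did. 8 differences were below 0 and 2 above 0, with a median of -0.09 over the 10 members and 0.02 over all genes. Fos and Atf3 had the largest differences and varied most between arrays, and the other 8 members varied less. All 10 means lay above the 25th percentile of gene means (4.49), and 5 lay above the median gene (6.74). Detection calls were not used here, and differences of dim probe sets are understated on this scale.

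**Figure D1:**
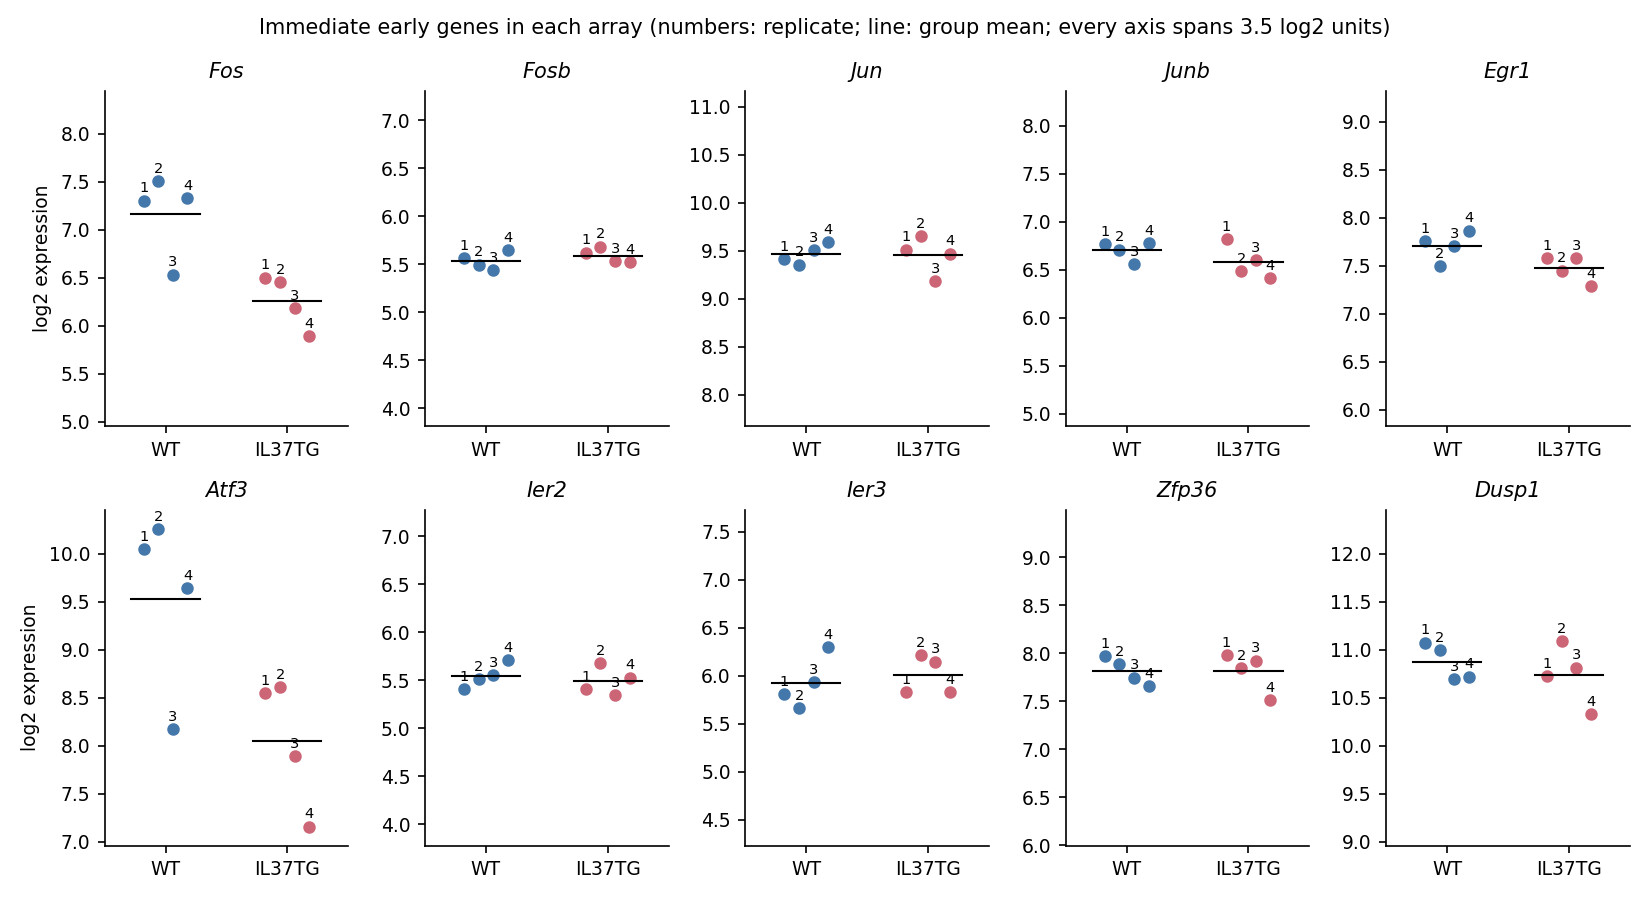
Log2 expression of the 10 immediate early genes in each array, WT in blue and IL37TG in red, with the replicate number beside each point and a line at each group mean. Every vertical axis spans the same range, so the wide spread of Fos and Atf3 can be seen beside the narrower spread of the other 8 genes.

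Fos encodes the subunit that pairs with a Jun protein to form the AP-1 transcription factor. Its wild-type values were 7.30, 7.51, 6.53 and 7.33 in replicates 1 to 4, and its transgenic values were 6.50, 6.45, 6.18 and 5.89. 3 wild-type arrays were high, wild-type replicate 3 was low, and the groups were parted by a gap of only 0.03. The group means were 7.17 ± 0.43 (WT) and 6.26 ± 0.28 (IL37TG; SD, n = 4 per group), which puts transgenic Fos at 0.532 of the wild-type level. The difference of -0.91 (SE 0.22, 95% confidence interval -1.43 to -0.39) did not pass over all genes (limma adjusted p = 0.0699). The exact two-sided permutation p was 0.0286, the smallest that 4 against 4 arrays can give. Fos was the only 1 of the 10 whose groups did not overlap, where 14.0% of all genes had this property.

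Atf3 encodes a stress-induced partner and competitor of the Fos and Jun proteins, known in macrophages as a brake on Toll-like receptor responses. Its wild-type values were 10.05, 10.26, 8.17 and 9.64, and its transgenic values were 8.55, 8.61, 7.89 and 7.16. The groups overlapped, because wild-type replicate 3 lay below transgenic replicates 1 and 2. The means were 9.53 ± 0.94 and 8.05 ± 0.68 (SD, n = 4 per group), the difference was -1.48 (SE 0.50, 95% confidence interval -2.62 to -0.33) and it did not pass (limma adjusted p = 0.145; exact permutation p = 0.0857). It was the member with the largest difference and the widest interval.

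Fos and Atf3 had much in common across the arrays. Wild-type replicate 2 was the highest wild-type array and replicate 3 the lowest for both genes, and transgenic replicate 4 was the lowest transgenic array for both. Fosb, Junb and Dusp1 shared both low arrays, but none of the other 8 members was highest in wild-type replicate 2. Without wild-type replicate 3 both genes passed by limma, Fos at -1.12 (adjusted p = 0.0126) and Atf3 at -1.93 (adjusted p = 0.0259), where 6.31% of all genes passed. Since that array was the lowest wild-type array for both, leaving it out could only enlarge the differences. With limma's array weights Fos passed at -0.94 (adjusted p = 0.0234) and Atf3 did not (-1.48, adjusted p = 0.0640), beside 6.71% of all genes. Without wild-type replicate 3 and transgenic replicate 4 together, chosen after seeing the data, Fos (-1.001) and Atf3 (-1.63) passed, beside 4.65% of all genes.

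The array names hold a letter and a number, uneven between the groups, that may be positions on a plate. With the letter as a block Fos differed by -0.43 (limma adjusted p = 0.717) and Atf3 by -0.36 (adjusted p = 0.912). Letter G is the only letter with both groups, and it holds wild-type replicates 3 and 4 and transgenic replicate 1. Within numbers 5, 7 and 9 Fos differed by -0.08, -1.13 and -1.31, and Atf3 by 0.44, -1.95 and -2.41. Number 5 holds wild-type replicate 3 and transgenic replicate 2 alone, and there the difference of Fos was near 0 and that of Atf3 was above 0.

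Markers of macrophages shared the lowest array of each group with Fos and Atf3. The mean of 8 macrophage markers was 10.33, 10.32, 9.44 and 10.00 in wild-type replicates 1 to 4, and 9.54, 9.51, 9.54 and 9.14 in the transgenic replicates. Wild-type replicate 3 and transgenic replicate 4 were again the lowest arrays of their groups. Across the other transgenic arrays the marker mean stayed between 9.51 and 9.54, while Fos and Atf3 were lowest in replicate 3 of these. The low arrays were not particular to macrophage markers. They were also lowest for the means of other AP-1 family subunits, other early response genes, and MAP kinase phosphatases and feedback inhibitors. For the means of heat shock genes and genes induced by low oxygen they were not. All 8 markers had a lower mean in transgenic fat, Fcgr1, an Fc receptor, fell (-1.09, SE 0.23, limma adjusted p = 0.0469), and no marker was below 6.47 in any array. Within numbers 5, 7 and 9 the marker mean differed by 0.06, -0.62 and -0.99, and within letter G by -0.18. The part of macrophage RNA in the values of Fos and Atf3 was not tested. In bulk tissue, fewer cells of a type and less RNA per cell cannot be told apart.

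**Figure D2:**
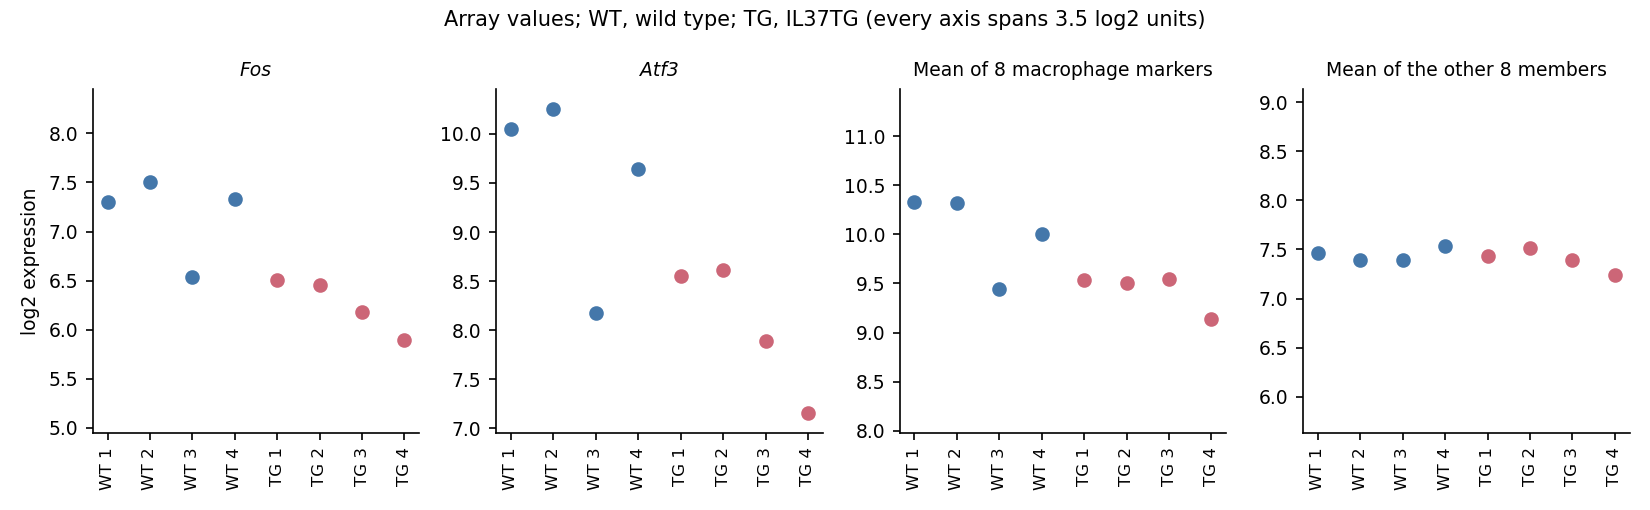
Log2 expression in each array of Fos, Atf3, the mean of 8 macrophage markers and the mean of the other 8 immediate early genes, WT in blue and IL37TG (TG) in red. Wild-type replicate 3 is the lowest wild-type array and transgenic replicate 4 the lowest transgenic array in the first 3 panels. The mean of the other 8 genes lies between 7.24 and 7.53. It is also lowest in transgenic replicate 4, and its lowest wild-type arrays are replicates 2 (7.388) and 3 (7.391).

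Promoter windows in RefSeq (GRCm38.p6) were found for 8 of the 10 genes, and the 250 bases before the start site were searched on both strands. The search used the core of the cyclic AMP response element (TGACGT), the AP-1 site (TGANTCA) and the CArG box, the letters bound by serum response factor. The core TGACGT was present in 3 of the 8 windows, those of Fos, Atf3 and Dusp1, and in 6.47% of 32851 windows of all genes. The CArG box was present in the window of Zfp36 and in 1.47% of all, and the AP-1 site in none of the 8 and in 6.75% of all. A match is only a run of letters, and no match says only that the letters are not in this window. The windows with the core are printed because they belong to Fos and Atf3, whose differences were the largest, and to Dusp1, whose difference was -0.13. None of the 3 passed by limma with all arrays and no block. They are Fos at chr12:85473640-85473889 (plus strand), Atf3 at chr1:191183334-191183583 (minus strand) and Dusp1 at chr17:26508473-26508722 (minus strand), 5′ to 3′, with TGACGT or its reverse complement in capitals.
Fos: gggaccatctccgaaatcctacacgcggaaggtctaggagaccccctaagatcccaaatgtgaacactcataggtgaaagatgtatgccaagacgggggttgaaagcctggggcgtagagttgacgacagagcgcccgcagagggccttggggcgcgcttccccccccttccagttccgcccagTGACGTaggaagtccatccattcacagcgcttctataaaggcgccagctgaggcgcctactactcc
Atf3: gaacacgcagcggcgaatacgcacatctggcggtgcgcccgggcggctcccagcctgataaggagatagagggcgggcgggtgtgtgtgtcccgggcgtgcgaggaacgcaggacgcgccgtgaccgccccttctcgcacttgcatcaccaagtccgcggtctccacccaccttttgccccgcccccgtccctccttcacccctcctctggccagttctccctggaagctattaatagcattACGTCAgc
Dusp1: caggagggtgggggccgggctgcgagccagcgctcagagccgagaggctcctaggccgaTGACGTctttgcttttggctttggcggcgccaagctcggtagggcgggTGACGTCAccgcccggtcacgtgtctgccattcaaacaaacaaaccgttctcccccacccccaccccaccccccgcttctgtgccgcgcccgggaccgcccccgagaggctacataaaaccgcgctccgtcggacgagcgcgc
The match lay 66 bases before the start of Fos and 8 bases before that of Atf3, counted from its first base. Dusp1 had 3 matches, 2 of which overlap. All 3 genes hold this run of letters, and the values of Dusp1 follow with the other members.

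Jun encodes the partner of Fos in AP-1. Its wild-type values were 9.41, 9.35, 9.51 and 9.59 and its transgenic values 9.51, 9.65, 9.18 and 9.47. The groups overlapped, and the difference was -0.01 (95% confidence interval -0.25 to 0.23, limma adjusted p = 0.967). Junb, which often acts against Jun on shared targets, had 6.77, 6.71, 6.56 and 6.77 in wild-type and 6.82, 6.48, 6.60 and 6.41 in transgenic fat, with the highest value in transgenic replicate 1. Its difference was -0.12 (95% confidence interval -0.35 to 0.10, limma adjusted p = 0.514). Fosb, a close relative of Fos, had 5.56, 5.50, 5.44 and 5.65 in wild-type and 5.62, 5.68, 5.53 and 5.52 in transgenic fat. It differed by 0.05 (95% confidence interval -0.10 to 0.21, limma adjusted p = 0.697) and stayed between 5.44 and 5.68 in all 8 arrays.

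Egr1 encodes a zinc finger transcription factor induced through serum response factor. Its wild-type values were 7.76, 7.50, 7.71 and 7.87 and its transgenic values 7.58, 7.45, 7.58 and 7.29. Wild-type replicate 2 lay inside the transgenic range, so the groups overlapped. The difference was -0.23 (SE 0.10, 95% confidence interval -0.46 to -0.01) and did not pass over all genes (limma adjusted p = 0.231).

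The products of Zfp36 and Dusp1 close the response. Zfp36 encodes tristetraprolin, which speeds the decay of AU-rich messenger RNAs, among them that of TNF. It had 7.97, 7.88, 7.75 and 7.66 in wild-type and 7.98, 7.84, 7.92 and 7.51 in transgenic fat, with means of 7.82 and 7.81 (limma adjusted p = 0.997, 95% confidence interval of the difference -0.27 to 0.27). Dusp1 encodes a phosphatase that switches off p38 and JNK, and glucocorticoids also induce it. Its values were 11.07, 10.99, 10.69 and 10.72 in wild-type and 10.72, 11.08, 10.81 and 10.33 in transgenic fat. Transgenic replicate 2 was the highest of all 8 arrays and transgenic replicate 4 the lowest, and the difference of -0.13 (95% confidence interval -0.50 to 0.24) did not pass (limma adjusted p = 0.688).

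Ier2 encodes a nuclear protein, and Ier3 a protein linked to cell survival and NF-κB signalling. Ier2 had 5.41, 5.51, 5.55 and 5.71 in wild-type and 5.41, 5.67, 5.35 and 5.53 in transgenic fat. Ier3 had 5.80, 5.66, 5.93 and 6.29 in wild-type and 5.83, 6.21, 6.14 and 5.83 in transgenic fat. For both genes the highest array was wild-type replicate 4, and the groups overlapped. The differences were -0.05 for Ier2 (95% confidence interval -0.27 to 0.16) and 0.08 for Ier3 (-0.27 to 0.43), with limma adjusted p of 0.780 and 0.805. Over the 8 members other than Fos and Atf3, the intervals reached from -0.50 to 0.43 at their widest. The lower bound is that of Dusp1 and the upper bound that of Ier3. For each gene, differences within its own interval are not excluded by these arrays.

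**Figure D3:**
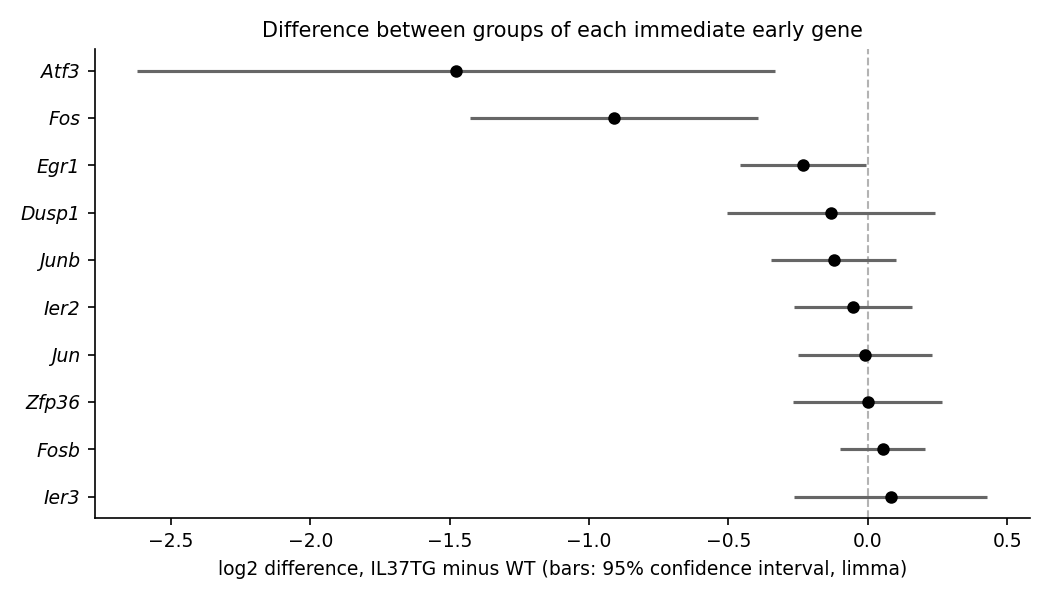
Log2 difference (IL37TG minus WT) of each immediate early gene with its 95% confidence interval from limma. The intervals of Atf3 and Fos lie below 0 and that of Egr1 ends at -0.01, while those of the other 7 genes span 0. None passed after adjustment over all genes.

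Spread between arrays of the same group was widest for Atf3 and Fos among the members. The SD within groups was 0.82 for Atf3 and 0.36 for Fos, 2 of 10 members above 0.3, where 12.1% of all genes were above it. Among the 1000 genes closest in mean level, the SD of Atf3 ranked at the 99.9th percentile and that of Fos at the 90.5th. Dusp1 ranked at the 96.5th percentile with an SD of 0.26. At the other end Fosb had an SD of 0.08 and ranked at percentile 4.9, and Ier2 had 0.13 and ranked at percentile 24.1. The median SD was 0.17 over the members and 0.13 over all genes.

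**Figure D4:**
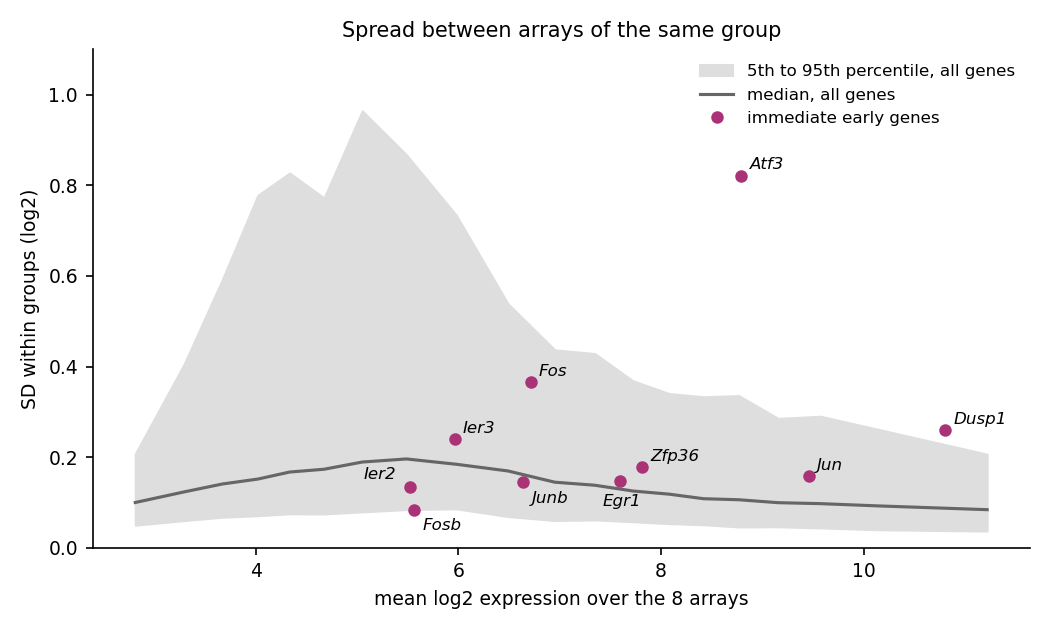
SD of log2 expression within groups against mean log2 expression over the 8 arrays, for the 10 immediate early genes (points), with the median (line) and the 5th to 95th percentile (shading) of all genes in 20 bins of level. Atf3 (0.82) and Dusp1 (0.26) lie above the shading, and Fosb (0.08) lies near its lower edge.

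Because these genes can respond to tissue handling, the order of arrays was read gene by gene. Wild-type replicate 4 was the highest wild-type array for 6 members (Fosb, Jun, Junb, Egr1, Ier2 and Ier3) and wild-type replicate 3 the lowest for 5 (Fos, Fosb, Junb, Atf3 and Dusp1). In the transgenic group, replicate 2 was highest for 6 members and replicate 4 lowest for 7, the exceptions being Jun, Ier2 and Ier3. Averaged over all 10 members, the arrays lay from -0.25 (transgenic replicate 4) and -0.24 (wild-type replicate 3) to 0.17 (transgenic replicate 2) from their group means. Averaged over the 8 members other than Fos and Atf3, these values were -0.16, -0.05 and 0.12. No array had all 10 members at the top of its group. The time between removal and freezing is not given in the sources used here, and its part in these values was not tested.

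Other genes of the early response were read from lists chosen by function, each beside the same 3.34% background. Of 42 measured immediate early and early response genes, Plk2 fell and Ptgs2 rose, and 40 did not pass. The median difference was -0.13, with 30 below 0 and 12 above 0. Plk2, a polo-like kinase induced by growth factors, had 8.77, 8.92, 8.66 and 8.84 in wild-type and 8.26, 8.39, 8.13 and 8.02 in transgenic fat, without overlap (difference -0.60, SE 0.09, limma adjusted p = 0.0202). Leaving out 1 array in turn, its call was lost for 4 of the 8. Ptgs2, the inducible cyclooxygenase, had 5.89, 5.56, 5.84 and 6.03 in wild-type and 6.22, 6.66, 6.42 and 6.74 in transgenic fat, also without overlap (difference 0.68, SE 0.14, limma adjusted p = 0.0440). It lost its call for 7 of the 8 arrays left out in turn, and with the letter in the array name as a block it was 0.28. These members of the list thus went opposite ways.

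Egr2, a relative of Egr1 that also acts in myeloid cells, was singled out after its values were seen, as the gene of that list with the most negative difference. It had 8.25, 8.23, 6.86 and 7.87 in wild-type and 7.13, 6.91, 6.56 and 5.67 in transgenic fat. Wild-type replicate 3 and transgenic replicate 4 were again the lowest of their groups, as for Fos, Atf3, the mean of the macrophage markers and the mean of that list. The difference was -1.24 (SE 0.39) and did not pass (limma adjusted p = 0.128).

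**Figure D5:**
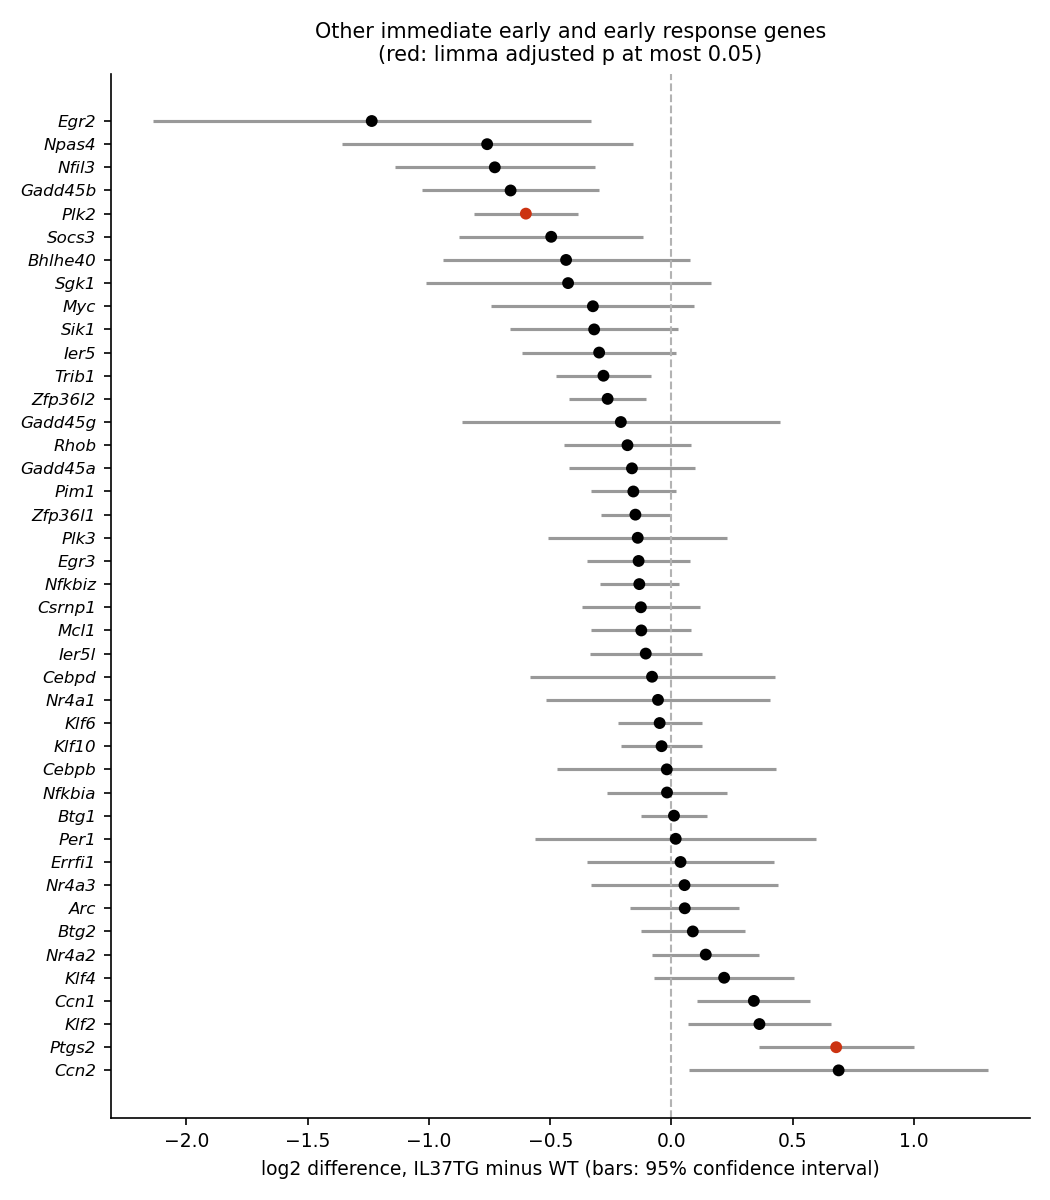
Log2 difference (IL37TG minus WT) of 42 other immediate early and early response genes with 95% confidence intervals from limma, those past an adjusted p of 0.05 in red. Plk2 (-0.60) and Ptgs2 (0.68) passed, and Egr2 (-1.24) had the most negative difference without passing.

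Of 15 other measured subunits of the Fos, Jun, ATF and Maf families, none passed by limma. An unadjusted p of at most 0.05 was found for 4 of them, beside 20.6% of all genes. The median difference was 0.03. Mafk, a small Maf protein, had 7.28, 7.63, 7.33 and 7.47 in wild-type and 7.85, 7.83, 7.96 and 7.71 in transgenic fat (difference 0.41, limma adjusted p = 0.0540). Fosl2, the Fos relative also called Fra-2, had 8.90, 8.68, 8.72 and 8.80 in wild-type and 8.68, 8.44, 8.27 and 8.35 in transgenic fat (difference -0.34, limma adjusted p = 0.0972). These were the only 2 of the 15 whose groups did not overlap, where 14.0% of all genes had this property. For Fosl2 the groups came within a few thousandths of a log2 unit.

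Of 24 measured MAP kinases, their downstream kinases and promoter-bound factors, 2 fell and none rose, with a median difference of -0.06. Both that fell are kinases activated by p38, which phosphorylate tristetraprolin and other RNA-binding proteins. Mapkapk3 had 8.71, 8.75, 8.43 and 8.61 in wild-type and 8.33, 7.99, 7.73 and 7.87 in transgenic fat (difference -0.64, SE 0.13, limma adjusted p = 0.0445). Mapkapk2 had 10.28, 10.38, 10.37 and 10.32 in wild-type and 10.04, 10.04, 10.18 and 9.99 in transgenic fat (difference -0.28, SE 0.06, limma adjusted p = 0.0469). Both calls were near the threshold, and leaving out 1 array lost that of Mapkapk3 for 6 arrays and that of Mapkapk2 for 7. With the letter in the array name as a block Mapkapk3 was -0.19.

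Of 16 other MAP kinase phosphatases and feedback inhibitors none passed by limma, with a median difference of -0.08. At an unadjusted p of at most 0.05 there were 4, beside 20.6% of all genes. The lowest p-values were those of Spred1, an inhibitor of the Ras pathway (difference -0.41, limma adjusted p = 0.0551), and of the phosphatase Dusp8 (difference 0.24, adjusted p = 0.154).

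Genes of heat shock, low oxygen and glucocorticoid action can also respond to handling. Of 19 listed heat shock genes, Hspa1a, Hspa1b, Hsp90ab1, Cryab and Hsf1 were not among the genes measured, so the list says nothing of them. Of 14 measured heat shock genes Hspb8, a small heat shock protein, rose (10.2 ± 0.09 to 10.73 ± 0.17, SD, n = 4 per group; difference 0.52, limma adjusted p = 0.0295), and the list median was 0.06. The mean of the list by array lay between 9.83 and 10.19, with the lowest and the highest value both in transgenic arrays, replicates 3 and 1. Of 24 genes induced by low oxygen Bnip3, a mitochondrial receptor for autophagy, rose by 0.36 (limma adjusted p = 0.0270), Hif1a, the oxygen-regulated transcription factor subunit, fell by 0.36 (adjusted p = 0.0333) and 22 did not pass. Of 15 glucocorticoid-responsive genes none passed by limma, with 3 at an unadjusted p of at most 0.05, beside 20.6% of all genes. Zbtb16, a transcription factor, differed by 0.74 (limma adjusted p = 0.0653) and the metallothionein Mt1 by -0.34 (adjusted p = 0.115). The calls of Hspb8, Bnip3 and Hif1a were lost without 6, 7 and 6 of the 8 arrays in turn.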

How the data were processed

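Expression in mouse epididymal fat was measured on 8 single-colour arrays, 4 WT and 4 IL37TG. Deposited values are probe set log2 expression levels made with RMA, per the submitters' processing notes; version and settings are not given in the sources used here. RMA equalises array distributions, which hides any change common to most genes.

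Of 35556 probe sets, 21218 had 1 gene symbol, 1881 several and 12457 none in the annotation used. For 21185 of those with 1 symbol, the symbol was taken by Entrez identifier from the gene names of GRCm38.p6, whether or not it changed. The probe set with the highest mean was kept for each of 18820 genes, 1386 of which had more than 1.

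limma 3.58.1 (R 4.3.3) tested IL37TG against WT with lmFit and eBayes, two-sided and unfiltered, with p-values adjusted by Benjamini-Hochberg over all genes (threshold 0.05). Lists are given as counts and medians. Named genes were all members and, of each other list, up to 4 past the threshold with the lowest p, or else the 2 with the lowest p. The members and the 20 other lists were chosen with earlier results of these data known.

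Alternatives were other normalisations, filters, probe set choices, priors, array weights, blocks and left-out arrays. The model was also run on simulated data of 4 against 4 arrays, with noise taken from the spread in the main fit. It called 32 of 50 genes changed by 0.5 and 46 of 50 changed by 1.0, with 10 false calls. Figures came from matplotlib 3.10.9 (Python 3.11.15).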

Additional observations from a re-analysis of the deposited data

Results flagged for a closer look

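Of 94 groups of 4 arrays examined (the members, the other named genes and the mean of macrophage markers), 4 (4.26%) held an array that stood apart from the rest. Chance alone flags about 1 group in 20. None was a group of an immediate early gene. Transgenic replicate 4 had a macrophage marker mean of 9.14, below the 9.51 to 9.54 of the other transgenic arrays. The same array had 8.995 for Spred1, below 9.16 to 9.18. Transgenic replicate 3 had 4.13 for Adam7, a gene of epididymal epithelium, above the 3.41 to 3.52 of the other transgenic arrays. Its wild-type values were 3.89, 3.48, 4.77 and 5.17, so wild-type replicates 3 and 4 were higher still. Transgenic replicate 1 had 5.88 for Csf3r, the receptor of granulocyte colony-stimulating factor, above 5.72 to 5.75.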

How the results depend on the processing

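The count of members past the threshold by limma was 0 and stayed 0 under 18 of 21 alternatives. It was 1 (Fos) with array weights and 2 (Fos and Atf3) without both wild-type replicate 3 and transgenic replicate 4, an alternative added after seeing the data. Leaving out 1 array in turn it ran from 0 to 2, with 2 only without wild-type replicate 3. Among genes at or above the median gene only 5 members were tested, because Fos, Junb, Ier3, Fosb and Ier2 had means below it. Fos ran from -1.12 to -0.43 and Atf3 from -1.93 to -0.36 over the alternatives. 5 members (Jun, Junb, Ier3, Zfp36 and Dusp1) changed sign under at least 1 alternative without passing, and so did 6 other named genes. The count over all genes was 629, and became 1295 at or above the median gene and 1263 with array weights. It was 93 with the replicate block, and 70 and 72 with the letter and the number in the array name as a block. Without the arrays whose names end in 2 it was 18. Those arrays are transgenic replicates 2 and 3, so that fit held fewer transgenic than wild-type arrays. Leaving out 1 array it ran from 82 (without wild-type replicate 4) to 1188 (without wild-type replicate 3), and it was 110 without wild-type replicate 1, 161 without wild-type replicate 2, 209, 136 and 231 without transgenic replicates 1, 2 and 4, and 424 without transgenic replicate 3. The cause of these changes was not tested. The filters also leave fewer genes to test, and the fits with arrays left out hold fewer arrays. Arrays of the same replicate number deviated together only weakly (correlations of 0.0566 to 0.102), and 2 of 8 arrays correlated best with their own number, so the numbers were not taken to pair the arrays. With the replicate block Fos was at -0.91 (limma adjusted p = 0.0998) and Atf3 at -1.48 (adjusted p = 0.124). More genes were lower than higher with the replicate block (53 against 40), with the letter as a block (60 against 10), without wild-type replicate 3 (668 against 520) and without both wild-type replicate 3 and transgenic replicate 4 (491 against 384). All 12 other named genes past the threshold lost their call without at least 4 of the 8 arrays in turn.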

Other observations

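Among 15 measured circadian clock genes none passed by limma, with 7 at an unadjusted p of at most 0.05, beside 20.6% of all genes, and a median difference of -0.03. Nfil3, a repressor of the clock output that is also an early response gene, differed by -0.73 (limma adjusted p = 0.0693) and Tef, an activator of the same sites, by 0.41 (adjusted p = 0.0981). Of neutrophil genes 2 of 5 fell, Csf3r (-0.46, limma adjusted p = 0.0201) and S100a8, a subunit of calprotectin (-1.51, adjusted p = 0.0280), with a list median of -0.08. The other measured members did not pass by limma, with differences of 0.88 for Retnlg, 0.07 for Cxcr2 and -0.08 for S100a9, the partner of S100a8. S100a8 did not have the array order of Fos: its wild-type values were 7.45, 7.44, 7.93 and 7.89, with replicate 3 the highest, and its transgenic values were 5.64, 5.97, 6.95 and 6.11. Of 5 skeletal muscle genes the alpha-actin gene Acta1 rose (0.72, limma adjusted p = 0.0206), with a list median of 0.07. Ckm (-0.06), Myh4 (-0.20), Tnnt3 (0.11) and Mylpf (0.07) did not pass. Of 8 adipocyte genes Adipoq rose (0.30, limma adjusted p = 0.0309) and the other 7 did not pass, with a list median of 0.11.

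Over all genes, 20.6% had an unadjusted p of at most 0.05. In the lists of other cell types no gene passed by limma after adjustment. These lists held 6 endothelial genes (median difference 0.10, 0 at an unadjusted p of at most 0.05), 6 mesothelial genes (0.35, 1 gene), 6 fibroblast genes (-0.08, 2 genes), 6 smooth muscle and pericyte genes (0.38, 3 genes), 5 epididymal genes (-0.05, 0 genes), 2 red blood cell genes (0.61, 1 gene), 4 B cell genes (0.22, 0 genes) and 5 T cell genes (-0.16, 0 genes).

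The genes outside all lists whose deviations from the group means were most like the mean of the 10 members were Arap3, Glb1, Fbl, Eps15l1 and Parp11. They were taken from 9228 genes at or above the median gene, with Pearson correlations over the 8 arrays of 0.99, 0.99, 0.99, 0.98 and 0.98. As the highest of many they are a description with no test, and the mean of the members is dominated by Atf3 and Fos. Glb1, the lysosomal beta-galactosidase, had 9.21, 9.19, 8.94 and 9.18 in wild-type and 8.995, 9.05, 8.86 and 8.73 in transgenic fat, with wild-type replicate 3 and transgenic replicate 4 the lowest of their groups. Fbl, the nucleolar methyltransferase fibrillarin, had 8.04, 8.04, 7.84 and 8.06 in wild-type and 8.06, 8.10, 7.92 and 7.74 in transgenic fat.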
